A study of Caenorhabditis elegans with 12 samples.

Results

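The C-type lectin (clec) genes of Caenorhabditis elegans were followed in atfs-1 mutant and wild-type L4 worms. Members were all rows of the deposited table of 46739 genes whose WormBase name starts with clec-. There were 265 such genes, of which 240 are annotated as protein coding and 25 as pseudogenes. Of the 265 genes, 117 passed the filter on low counts in the atfs-1(null) comparison and 117 in the atfs-1(et18) comparison, and 111 of them passed in both. The 142 genes that passed in neither comparison had at most 0.481 RPKM (reads scaled to library size and per kilobase of exon) on average in N2 worms, and 22 of the 265 had no read in any of the 12 libraries. 3 names are each carried by 2 gene IDs, which were kept apart.

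C-type lectins share a calcium-binding fold that in many members recognises sugars, and most worm clec genes encode small secreted proteins or proteins held at the cell surface. The family is greatly expanded in nematodes, and its genes often lie side by side in the genome. Many are transcribed in the intestine and change when worms meet bacteria, so they are used as readouts of innate immunity, for example downstream of the p38 kinase PMK-1. Others are transcribed in the germline, hypodermis or male tissues, and a few encode the core proteins of chondroitin proteoglycans. ATFS-1 is the transcription factor of the mitochondrial unfolded protein response. It is normally imported into mitochondria, and it acts in the nucleus when import is low.

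Experiment 1 held 3 libraries of atfs-1(null), a strain that lacks the atfs-1 open reading frame, beside 3 libraries of N2, the wild-type strain. Experiment 2 held 3 libraries of atfs-1(et18), which carries an amino acid substitution in the mitochondrial targeting sequence of ATFS-1, and 3 further libraries of N2. All were whole L4 worms grown at 20 °C without treatment, and total RNA was sequenced as single reads. The labels name OP50 as the food bacteria, while the study's methods name HT115 for worms raised for RNA isolation, so the food of these samples is uncertain. Each mutant was compared only with the N2 libraries of its own experiment, and strain and experiment cannot be told apart where the mutants are set against each other. The study describes its RNA-seq samples as biologically independent, but the labels name no separate cultures, so the spread between libraries may be in part technical. Levels below are CPM, counts per 1000000 reads after TMM scaling within an experiment, unless RPKM is named.

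Total counts lay between 24090660 and 37050803 per library. The atfs-1 gene had 19 to 27 counts in atfs-1(null) libraries and 1104 to 1558 in their N2 libraries. It had 2029 to 2377 counts in atfs-1(et18) libraries and 1680 to 2734 in their N2 libraries. atfs-1(null) replicate 3 and atfs-1(et18) replicate 2 stood apart from the other libraries of their groups, with a chi-square per degree of freedom of 115 to 147 against their fellow replicates, where all other pairs within groups gave 10.1 to 37.4. Both libraries also stood apart in germline markers. Summed CPM of the 31 major sperm protein (msp) genes was 596 to 1439 in atfs-1(null) and 68.7 to 166 in its N2, and 196 to 872 in atfs-1(et18) and 190 to 430 in its N2. The 5 oocyte markers (oma-1, oma-2, puf-5, rme-2 and lin-41) summed to 1185 to 2495 CPM in atfs-1(null) and 107 to 192 CPM in its N2, and to 207 to 763 CPM in atfs-1(et18) and 163 to 242 CPM in its N2. The 6 intestine markers (elt-2, ges-1, ifb-2, act-5, pept-1 and asp-1) summed to 4324 to 5147 CPM in atfs-1(null) and 12063 to 14778 CPM in its N2, and to 8335 to 10865 CPM in atfs-1(et18) and 8279 to 8907 CPM in its N2. In RNA from whole worms, fewer cells of a type and less RNA per cell cannot be told apart.

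A single gene dominated the clec transcripts of L4 worms. Summed over all 265 genes, clec transcripts made up 3576 to 3987 CPM in atfs-1(null) and 4813 to 5160 CPM in its N2, and 4865 to 5942 CPM in atfs-1(et18) and 3655 to 4123 CPM in its N2. The groups did not overlap in either experiment, with the sum lower in atfs-1(null) and higher in atfs-1(et18). As a share of all counts, without TMM scaling, it was 0.396% to 0.419% in atfs-1(null) and 0.447% to 0.465% in its N2, a smaller gap. In atfs-1(et18) that share was 0.495% to 0.605%, and in its N2 0.356% to 0.42%. clec-63 on chromosome II alone gave 26.3% to 39.4% of the summed clec CPM in every library. In N2 worms clec-63 had 1215 ± 39.7 RPKM in experiment 1 and 852 ± 129 RPKM in experiment 2 (SD, n = 3 each), and clec-50 came next with 419 ± 104 and 379 ± 10.6 RPKM. After these came clec-47, clec-150 and clec-48 with averages of 270, 205 and 188 RPKM over the 6 N2 libraries, and then clec-1, clec-84, clec-5, clec-83 and clec-180 between 76.7 and 104 RPKM. Neighbours in this order overlapped in their single N2 libraries, except that clec-63 lay above clec-50, and clec-48 above clec-1, in every library. A mean of at least 10 RPKM was reached by 39 clec genes and of at least 1 RPKM by 100.

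**Figure D1:**
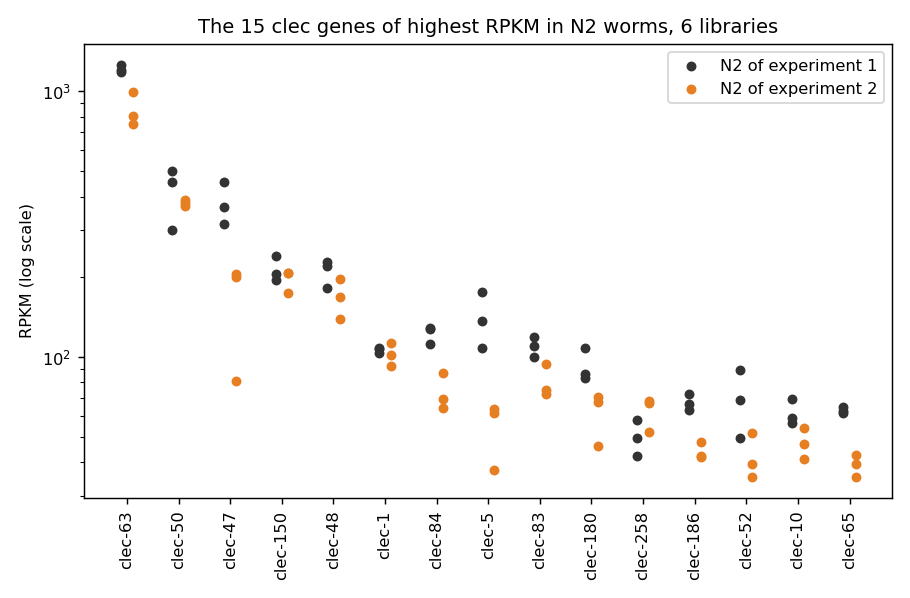
RPKM (log axis) of the 15 clec genes with the highest mean in N2 worms, with 1 point for each of the 3 N2 libraries of experiment 1 (dark) and of experiment 2 (orange). clec-63 lies above every other gene, and clec-47 and clec-5 lie lower in all experiment 2 libraries than in all experiment 1 libraries. Scaling was done within each experiment.

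The N2 worms of the experiments were not alike in clec levels. Among the 100 genes with at least 1 RPKM, the N2 level of experiment 2 over that of experiment 1 ranged from 0.285 to 8.05 with a median of 0.909, and it was at least 2-fold higher for 20 genes and at least 2-fold lower for 8. TMM scaling was done within each experiment, beside the mutant libraries, so these levels are not on 1 scale. The N2 scaling factors were 0.896 to 0.929 in experiment 1 and 0.975 to 1.02 in experiment 2. clec-247 had the highest ratio and clec-210 the lowest. The change of each mutant below is therefore read only against its own N2 libraries.

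In atfs-1(null) worms clec genes fell more often than they rose. Of the 117 genes tested, 54 fell (46.2%) and 27 rose (23.1%) at an adjusted p under 0.05 (edgeR quasi-likelihood test, Benjamini-Hochberg over all 15620 genes tested), and 36 did not pass. The background over all genes was 35.4% lower and 32.9% higher. At least 2-fold changes were 42 lower and 24 higher, where the background was 19.1% lower and 23.2% higher. Tested clec genes had a median log2 fold change of -0.29, and all genes one of -0.04. With scaling by library size alone, the median of all genes was 0.21 and that of clec genes -0.04, with 45 clec genes lower and 31 higher, and the calls over all genes were split into 6244 higher and 4190 lower, against 5134 and 5530 with TMM scaling. Without atfs-1(null) replicate 3 the counts were 53 lower (42.1%) and 40 higher (31.7%) of 126 clec genes, with backgrounds of 37.3% and 36.1%, so the excess of falls was smaller. With DESeq2, 49 of 183 clec genes fell (26.8%, background 25.9%) and 38 rose (20.8%, background 29.7%). The share of falls was then near that of all genes. The 6 intestine markers all fell in atfs-1(null), and all 5 oocyte markers, all 6 vitellogenin genes and 27 of 28 tested msp genes rose. The 3 coelomocyte markers (12.1 to 13.8 CPM in atfs-1(null) and 22.2 to 37.5 CPM in its N2) and the 4 body wall muscle markers (4987 to 6460 and 8910 to 9267 CPM) all fell too. Their part in the clec changes was not tested.

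The deepest falls in atfs-1(null) included members of a cluster on chromosome IV and several genes on chromosome V. clec-70, whose transcript is known to respond to Staphylococcus aureus, had 2.38, 0.575 and 0.886 CPM in the atfs-1(null) libraries and 23.3, 7.03 and 7.61 CPM in their N2 libraries. All mutant libraries lay below all N2 libraries, and N2 replicate 1 was the highest. The log2 fold change of clec-70 was -3.31 ± 0.69 (SE, adjusted p = 0.00465). Its neighbour clec-69, a pseudogene, had 0.119, 0.0575 and 0.0886 CPM in atfs-1(null) and 3.52, 1.46 and 2.03 CPM in N2, and fell by 4.68 ± 0.49 on the log2 scale (adjusted p = 0.000348). clec-233 had 0.743, 0.460 and 0.975 CPM in atfs-1(null) and 6.68, 5.72 and 7.40 CPM in N2, a log2 fold change of -3.18 ± 0.31 (adjusted p = 0.000295). The neighbours clec-204 and clec-205 on chromosome V fell together, with log2 fold changes of -2.56 ± 0.33 and -2.08 ± 0.22 (adjusted p = 0.000659 and 0.000345), as did clec-210 on the same chromosome (-2.62 ± 0.38, adjusted p = 0.000988). clec-146 on chromosome II completed the low-level group with -2.04 ± 0.22 (adjusted p = 0.000382). Each of these groups of mutant and N2 libraries was free of overlap, which the rule for naming the genes required.

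Genes among the most abundant in N2 fell too. clec-180 had 84.3, 56.9 and 48.4 CPM in atfs-1(null) libraries and 246, 309 and 237 CPM in N2 libraries, a log2 fold change of -2.06 ± 0.22 (adjusted p = 0.000378). clec-5 had 59.5, 40.0 and 49 CPM in atfs-1(null) and 230, 141 and 179 CPM in N2, and its log2 fold change was -1.89 ± 0.22 (adjusted p = 0.000459). For both genes the highest mutant library lay well under the lowest N2 library. clec-48, clec-50 and clec-84 fell by 1.77, 1.17 and 1.44 on the log2 scale, and clec-1, whose exons overlap another gene over 12% of their bases, by 0.78, all with adjusted p between 0.000293 and 0.00413. The fall of clec-47 by 0.86 had an adjusted p of 0.0219 and was lost without N2 replicate 3 or without atfs-1(null) replicate 1 or 2 (adjusted p 0.0726 to 0.0876). The most abundant gene, clec-63, changed less, with 1195, 1202 and 1192 CPM in atfs-1(null) and 1575, 1556 and 1654 CPM in N2. Its log2 fold change was -0.41 ± 0.07 (adjusted p = 0.00149), and with scaling by library size alone it was -0.17 (adjusted p = 0.0603).

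The strongest rises in atfs-1(null) were in clec-87 and clec-88, which encode core proteins of chondroitin proteoglycans (CPG-5 and CPG-6), and in clec-91 and clec-97 on chromosome I. clec-87 had 303, 339 and 648 CPM in atfs-1(null) libraries and 25.0, 14.9 and 6.85 CPM in N2 libraries. clec-88 had 98, 111 and 213 CPM in atfs-1(null) and 9.72, 6.28 and 3.17 CPM in N2. clec-91 had 41.3, 44.4 and 87.6 CPM in atfs-1(null) and 4.92, 3.33 and 1.14 CPM in N2. In each of these 3 genes atfs-1(null) replicate 3 was the highest library and N2 replicate 3 the lowest, and the groups were far apart. Log2 fold changes were 4.78 ± 0.55 for clec-87, 4.46 ± 0.49 for clec-88 and 4.20 ± 0.56 for clec-91 (adjusted p = 0.000444, 0.000395 and 0.00072). clec-97 rose from a very low base, with 2.08, 1.61 and 6.11 CPM in atfs-1(null) and 0.304, 0 and 0 CPM in N2 (log2 fold change 4.84 ± 1.03, adjusted p = 0.00499). Its exons overlap clec-98 over 15.5% of their bases. clec-223, also low, had 1.93, 1.41 and 4.64 CPM in atfs-1(null) and 0.638, 0.150 and 0.103 CPM in N2 (log2 fold change 3.10 ± 0.73, adjusted p = 0.00746). clec-223 had no read in the 3 atfs-1(et18) libraries and 12, 19 and 13 reads in their N2 libraries, and was not tested there.

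The rising genes differed in whether atfs-1(null) replicate 3, which stood apart, was their lowest or highest mutant library. This order was not counted over all genes. Of the 27 genes that rose in atfs-1(null), 17 were lowest in atfs-1(null) replicate 3 among the mutant libraries and 9 were highest there. A low replicate 3 was not particular to them. Of the 36 tested clec genes that did not pass, 26 were lowest and 3 highest there, and of the 54 that fell, 18 were lowest and 23 highest. Among the 17 were clec-117, clec-153, clec-175, clec-260 and clec-151, which rose by 2.04 to 2.65 on the log2 scale (adjusted p 0.0021 to 0.0074). clec-117 had 12.2, 12.4 and 5.02 CPM in atfs-1(null) libraries and 1.82, 2.02 and 0.861 CPM in N2 libraries. clec-123, named after its values were seen because it is the most abundant of this kind, had 81.0, 88.4 and 30.7 CPM in atfs-1(null) and 17.6, 23.8 and 10.3 CPM in N2. The order of libraries in clec-117 and clec-123 is also that of the summed msp genes, which were 1274, 1439 and 596 CPM in atfs-1(null) and 159, 166 and 68.7 CPM in N2. It was not that of clec-4 and clec-41, also among the 17, which were highest in atfs-1(null) replicate 1. Among the 9 were clec-87, clec-88, clec-91, clec-97 and clec-223. The summed oocyte markers were also highest in atfs-1(null) replicate 3, at 1185, 1363 and 2495 CPM in atfs-1(null) and 192, 140 and 107 CPM in N2. clec-87, clec-88 and clec-91 followed the order of these sums in all 6 libraries, while clec-97 and clec-223 were lower in atfs-1(null) replicate 2 than in replicate 1. The part of sperm and oocyte transcripts in these changes was not tested.

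Most of the genes that rose in atfs-1(null) were highest in a single atfs-1(et18) library. Of the 27 genes that rose in atfs-1(null), 22 had their highest atfs-1(et18) value in replicate 2, the library that stood apart, and of the 54 that fell, 7 did and 40 had their lowest value there. Of the 36 tested clec genes that did not pass in atfs-1(null), 16 were highest and 12 lowest there. The order was not counted over all genes, so it cannot be called particular to clec genes. clec-123 had 24, 83.3 and 32.3 CPM in atfs-1(et18) and 27.8, 41.3 and 42.1 CPM in its N2. clec-87 had 44.9, 204 and 61 CPM in atfs-1(et18) and 14.2, 33.8 and 21.2 CPM in its N2. The log2 fold change of clec-87 in atfs-1(et18) was 2.16 ± 0.64 (adjusted p = 0.0637), and it was 1.93 (adjusted p = 0.00761) in the fit that paired libraries by replicate number. With this block, clec-88 (1.19, adjusted p = 0.0423) and clec-97 (2.46, adjusted p = 0.00922) also passed in atfs-1(et18), which they did not without it.

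**Figure D2:**
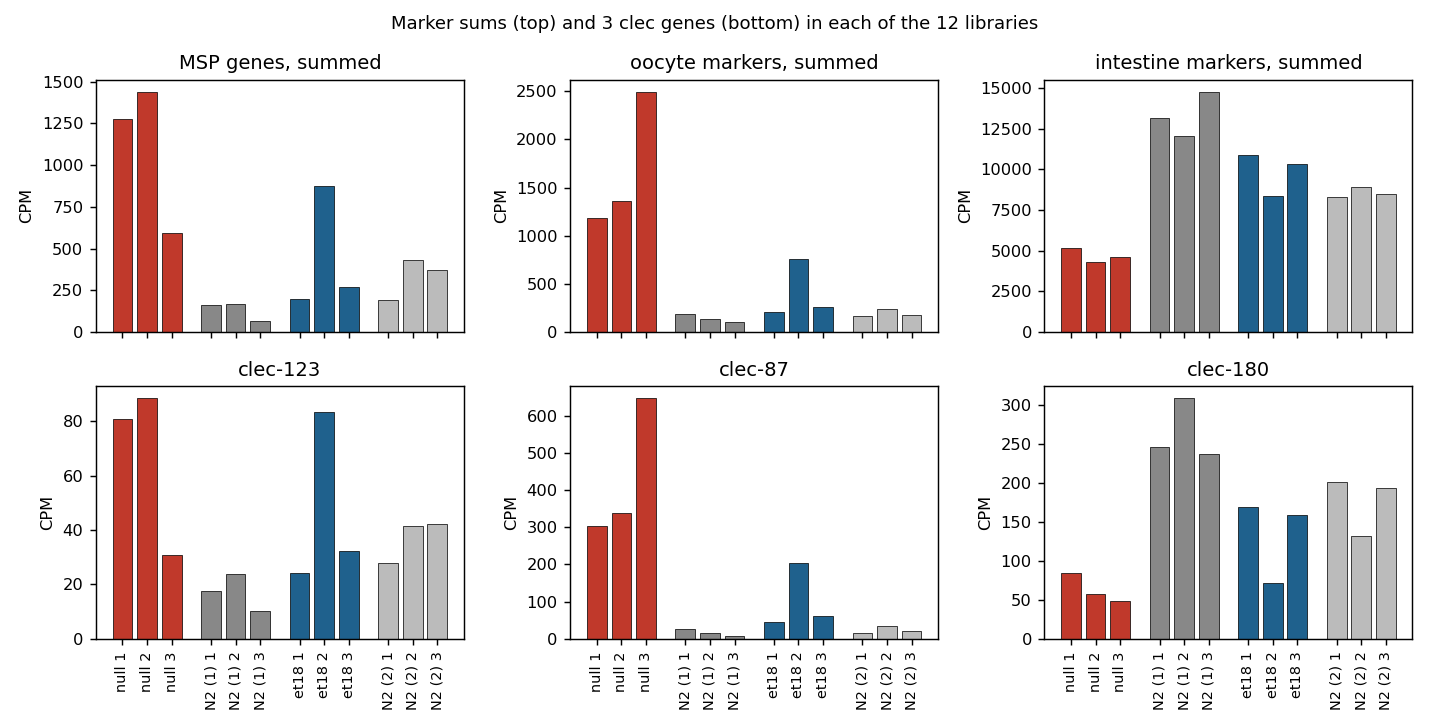
Summed CPM of the msp genes, the oocyte markers and the intestine markers (top) and CPM of clec-123, clec-87 and clec-180 (bottom) in each of the 12 libraries, in the order atfs-1(null), N2 of experiment 1, atfs-1(et18) and N2 of experiment 2. clec-123 and the msp genes are lower in atfs-1(null) replicate 3 than in replicates 1 and 2, clec-87 and the oocyte markers are highest there, and all 4 are highest within atfs-1(et18) in replicate 2.

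In atfs-1(et18) worms fewer clec genes passed the test, in near equal numbers up and down. Of 117 genes tested, 15 rose (12.8%) and 17 fell (14.5%), where the background over all 15639 genes was 9.42% higher and 7.51% lower. At least 2-fold changes were 9 higher and 15 lower, against backgrounds of 4.66% higher and 3.99% lower. Tested clec genes had a median log2 fold change of -0.24, and all genes one of 0.07. The number of calls depended on single libraries, for clec genes as for all genes. The number of falls was 5, 9 and 3 without N2 replicate 1, 2 or 3, and 11, 23 and 4 without atfs-1(et18) replicate 1, 2 or 3, while the number of rises was 10 to 14 in 5 of these fits and 23 without atfs-1(et18) replicate 2. Over all genes, falls made up 1.77%, 4.25% and 1.95% without N2 replicate 1, 2 or 3 and 4.62%, 11.3% and 2.18% without atfs-1(et18) replicate 1, 2 or 3, beside 4%, 7.2%, 2.42%, 8.8%, 18.3% and 3.23% of tested clec genes in the same order. Rises over all genes made up 3.54%, 4.85% and 3.33% without N2 replicate 1, 2 or 3, beside 8%, 9.6% and 8.06% of clec genes. They made up 6.26%, 17.2% and 4.07% without atfs-1(et18) replicate 1, 2 or 3, beside 11.2%, 18.3% and 8.87% of clec genes. With the replicate block, 19 clec genes rose and 20 fell (background 10.7% and 9.77%), and 14 of the 15 rises and 15 of the 17 falls were among them. The calls lost with the block were those of clec-238, which rose by 1.25 (adjusted p = 0.0486, with the block 0.0663), clec-43, which fell by 1.69 (0.0315 and 0.0515), and clec-71, which fell by 1.34 (0.0459 and 0.053). The call of clec-238 was also lost in every fit without 1 library other than that without atfs-1(et18) replicate 2 (adjusted p 0.0997 to 0.175), and that of clec-43 without replicate 1 or 3 of either strain (adjusted p 0.0751 to 0.123). All 3 coelomocyte markers (cup-4, unc-122 and lgc-26) fell in atfs-1(et18), with sums of 8.94 to 10.8 CPM in atfs-1(et18) and 26.3 to 28.7 CPM in its N2. So did 3 of 4 body wall muscle markers (sums of 6492 to 7740 and 9604 to 11136 CPM) and 3 of 4 pharynx markers (208 to 329 and 553 to 982 CPM). Their part in the clec changes was not tested.

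The rises in atfs-1(et18) were led by genes known from worm immunity. clec-17, on chromosome I, had 10.3, 6.0 and 15 CPM in atfs-1(et18) libraries and 0.360, 0.255 and 1.06 CPM in their N2 libraries. It was higher in every mutant library, by a log2 fold change of 4.21 ± 0.61 (adjusted p = 0.00771), the largest rise of a clec gene in this strain. clec-4, an ATFS-1-dependent gene of the response to Pseudomonas aeruginosa, had 41.9, 50.5 and 49.1 CPM in atfs-1(et18) and 4.18, 3.57 and 7.38 CPM in N2 (log2 fold change 3.22 ± 0.29, adjusted p = 0.00155). clec-85, a gene regulated by PMK-1, had 90.8, 94.7 and 88.4 CPM in atfs-1(et18) and 20.5, 19.3 and 22.8 CPM in N2. The libraries of each group lay close together, and the log2 fold change was 2.13 ± 0.09 (adjusted p = 0.000145). clec-265, on the X chromosome, was as even, with 132, 129 and 135 CPM in atfs-1(et18) and 31.6, 32.8 and 34.3 CPM in N2 (log2 fold change 2.01 ± 0.07, adjusted p = 7.5e-05). These 4 calls held without any single library.

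Smaller rises were found in clec-66 (log2 fold change 1.38 ± 0.17), clec-160 (1.17 ± 0.11), clec-67 (1.15 ± 0.18), clec-65 (0.85 ± 0.11) and clec-186 (0.63 ± 0.08), with adjusted p between 0.00187 and 0.0108, and all 5 held without any single library. The abundant gene clec-150 had 499, 350 and 532 CPM in atfs-1(et18) and 198, 235 and 236 CPM in N2 (log2 fold change 1.05 ± 0.17, adjusted p = 0.0114). Its call was lost without N2 replicate 1 (adjusted p = 0.0592) or replicate 3 (adjusted p = 0.0515). clec-63 had 2163, 1511 and 2336 CPM in atfs-1(et18) and 1059, 987 and 1309 CPM in N2, with replicate 2 the lowest mutant library but still above all N2 libraries. Its log2 fold change of 0.84 ± 0.19 (adjusted p = 0.0298) lost the call in every leave-one-out fit other than that without atfs-1(et18) replicate 2 (adjusted p 0.0609 to 0.125).

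None of the 10 clec genes highest in N2 by RPKM fell in atfs-1(et18) without the replicate block. The falls were led by clec-230 and clec-229. clec-230 had 2.68, 1.10 and 2.38 CPM in atfs-1(et18) and 12.2, 14.0 and 14.2 CPM in N2 (log2 fold change -2.71 ± 0.33, adjusted p = 0.00441), and its neighbour clec-229 on chromosome V had 0.766, 0.571 and 0.520 CPM in atfs-1(et18) and 3.52, 4.84 and 2.96 CPM in N2 (-2.60 ± 0.29, adjusted p = 0.00327). In both genes all mutant libraries lay far below all N2 libraries, and the calls held without any single library. clec-26 (-2.50 ± 0.52), clec-60 (-2.14 ± 0.48) and clec-78 (-1.83 ± 0.29) fell at adjusted p of 0.0238, 0.0289 and 0.0106. clec-2, clec-71, clec-72, clec-166 and clec-227 fell by 1.16 to 1.48 on the log2 scale, at adjusted p between 0.0236 and 0.0459. The calls of clec-2, clec-26, clec-60, clec-72 and clec-166 were each lost in 4 of the 6 fits without 1 library and those of clec-71 and clec-227 in 5, all 7 of them without N2 replicate 1 and without atfs-1(et18) replicate 3, and some without N2 replicate 2 or 3 or atfs-1(et18) replicate 1 or 2 (adjusted p 0.0518 to 0.164), and that of clec-78 without N2 replicate 3 (adjusted p = 0.0524). With the replicate block clec-71 did not pass (adjusted p = 0.053) and clec-5 did (log2 fold change -0.57, adjusted p = 0.031).

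Set side by side, clec genes had the higher change in atfs-1(et18) more often than all genes did in the main fit. Without the libraries that stood apart, the shares were near those of all genes. When the difference between the strains was tested over all 12 libraries, the change in atfs-1(et18) was higher than that in atfs-1(null) for 41 of 127 tested clec genes (32.3%) and lower for 25 (19.7%), where the background over 16188 genes was 26.1% higher and 22.9% lower. Differences of at least 2-fold were found for 36 and 24 of the 127 clec genes, with backgrounds of 17.8% and 16.5%, and the 36 are a larger share than their background. Without both libraries that stood apart, a setting chosen after seeing the data, the counts were 43 higher (31.6%) and 42 lower (30.9%) of 136 clec genes, with backgrounds of 33.1% and 34.3%. Without atfs-1(et18) replicate 2 alone they were 41 higher (29.3%) and 43 lower (30.7%), with backgrounds of 28.9% and 30.3%.

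**Figure D3:**
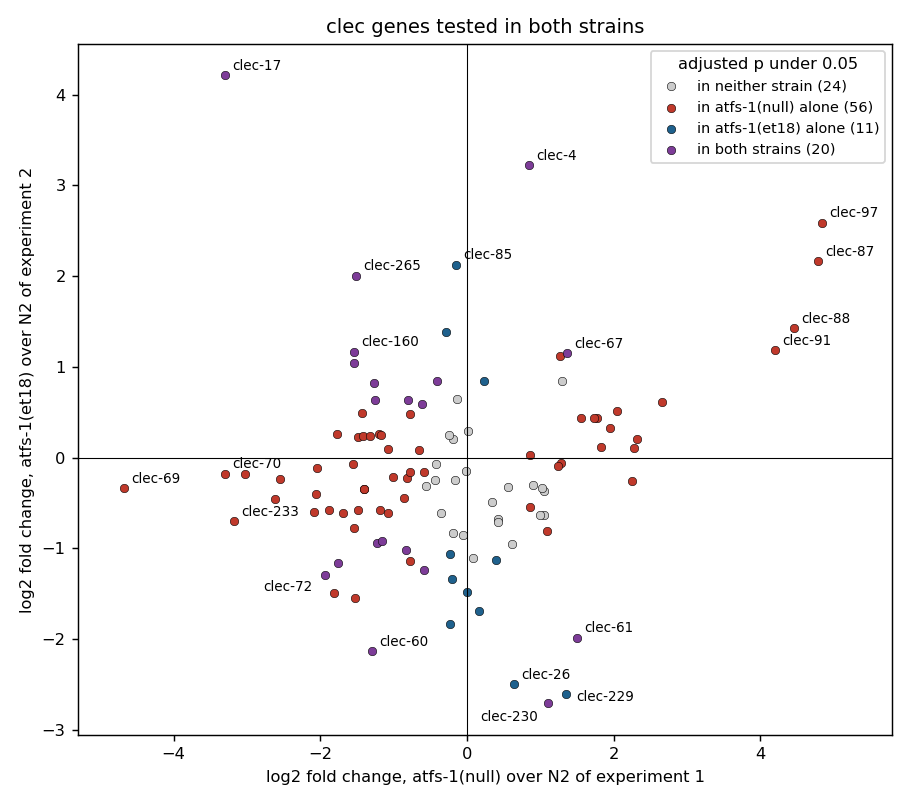
Log2 fold change in atfs-1(null) over its N2 (x axis) and in atfs-1(et18) over its N2 (y axis) of the 111 clec genes tested in both strains, coloured by the strain in which the adjusted p was under 0.05. Of them 20 passed in both strains, 56 in atfs-1(null) alone, 11 in atfs-1(et18) alone and 24 in neither, and clec-17, clec-265 and clec-160 lie below 0 on the x axis and above 0 on the y axis.

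Of the 20 genes that passed in both strains, 9 fell in atfs-1(null) and rose in atfs-1(et18). These were clec-17, clec-265, clec-150, clec-160, clec-83, clec-10, clec-186, clec-56 and clec-63. The rises of clec-10 and clec-56 in atfs-1(et18) were 0.64 and 0.59 on the log2 scale and were each lost in 4 of the 6 fits without 1 library, in both cases without N2 replicate 1, 2 or 3, for clec-10 also without atfs-1(et18) replicate 1 and for clec-56 without replicate 3 (adjusted p 0.056 to 0.132). clec-17 had 0.149, 0.172 and 0.0295 CPM in atfs-1(null) and 1.82, 0.972 and 0.758 CPM in its N2 (log2 fold change -3.30 ± 0.57, adjusted p = 0.00209), beside the rise in atfs-1(et18) given above. The change of clec-17 thus differed between the strains by 7.48 on the log2 scale (adjusted p = 0.000122). clec-265 had 24.8, 20.3 and 23.5 CPM in atfs-1(null) and 79.5, 51.4 and 65.9 CPM in its N2 (-1.52 ± 0.18, adjusted p = 0.000496), and differed between the strains by 3.48 (adjusted p = 1.9e-06). It had the smallest adjusted p of all clec genes in this test, followed by clec-160 (2.66, adjusted p = 4.6e-06), clec-85 (2.24, adjusted p = 4.7e-06), clec-83 (2.05, adjusted p = 2.8e-05), clec-150 (2.54, adjusted p = 2.8e-05) and clec-186 (1.39, adjusted p = 4.7e-05). clec-160 had 18.8, 19.0 and 20.1 CPM in atfs-1(null) and 61, 49.3 and 58.1 CPM in its N2, against 115, 89.1 and 98.3 CPM in atfs-1(et18) and 43.6, 47.0 and 44.2 CPM in its N2. The fall of clec-83 in atfs-1(null) was 1.27 ± 0.10 and its rise in atfs-1(et18) 0.82 ± 0.14, a rise whose call was lost without N2 replicate 1 or 3 or atfs-1(et18) replicate 3 (adjusted p 0.0522 to 0.0673), and 29.1% of its exon bases overlap other gene models.

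The opposite pattern, higher in atfs-1(null) and lower in atfs-1(et18), was found in clec-230 and clec-61. clec-230 had 10.1, 11.2 and 6.17 CPM in atfs-1(null) and 4.55, 4.56 and 3.62 CPM in its N2 (log2 fold change 1.11 ± 0.27, adjusted p = 0.00814), and the change differed between the strains by -3.85 (adjusted p = 8.1e-05). clec-61 had 1.72, 2.21 and 1.60 CPM in atfs-1(null) and 0.638, 1.01 and 0.310 CPM in its N2 (1.5 ± 0.40, adjusted p = 0.0127). In atfs-1(et18) clec-61 fell by 1.99 ± 0.49 (adjusted p = 0.04), a call lost in every leave-one-out fit other than that without N2 replicate 2 (adjusted p 0.0525 to 0.143). Both strains raised clec-4 and clec-67 and lowered 7 genes, clec-53, clec-60, clec-72, clec-166, clec-178, clec-199 and clec-227. clec-72 had 15.7, 11.3 and 14.9 CPM in atfs-1(null) and 63.2, 45.2 and 52.0 CPM in its N2 (-1.94 ± 0.19, adjusted p = 0.000295), and 13.3, 5.59 and 10.2 CPM in atfs-1(et18) and 25.0, 18.8 and 27.7 CPM in its N2 (-1.29 ± 0.33, adjusted p = 0.0429). The differences between the strains of these 7 genes lay between -0.89 and 0.60 on the log2 scale, with adjusted p of 0.127 to 0.595. Each of the 7 falls in atfs-1(et18) was lost in 3 to 5 of the 6 fits without 1 library, and always without N2 replicate 1 and without atfs-1(et18) replicate 3. In atfs-1(null) the fall of clec-166 (-0.59, adjusted p = 0.0396) was lost in every such fit other than that without N2 replicate 3 (adjusted p 0.0523 to 0.125), and that of clec-53 without N2 replicate 1 (adjusted p = 0.054).

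**Figure D4:**
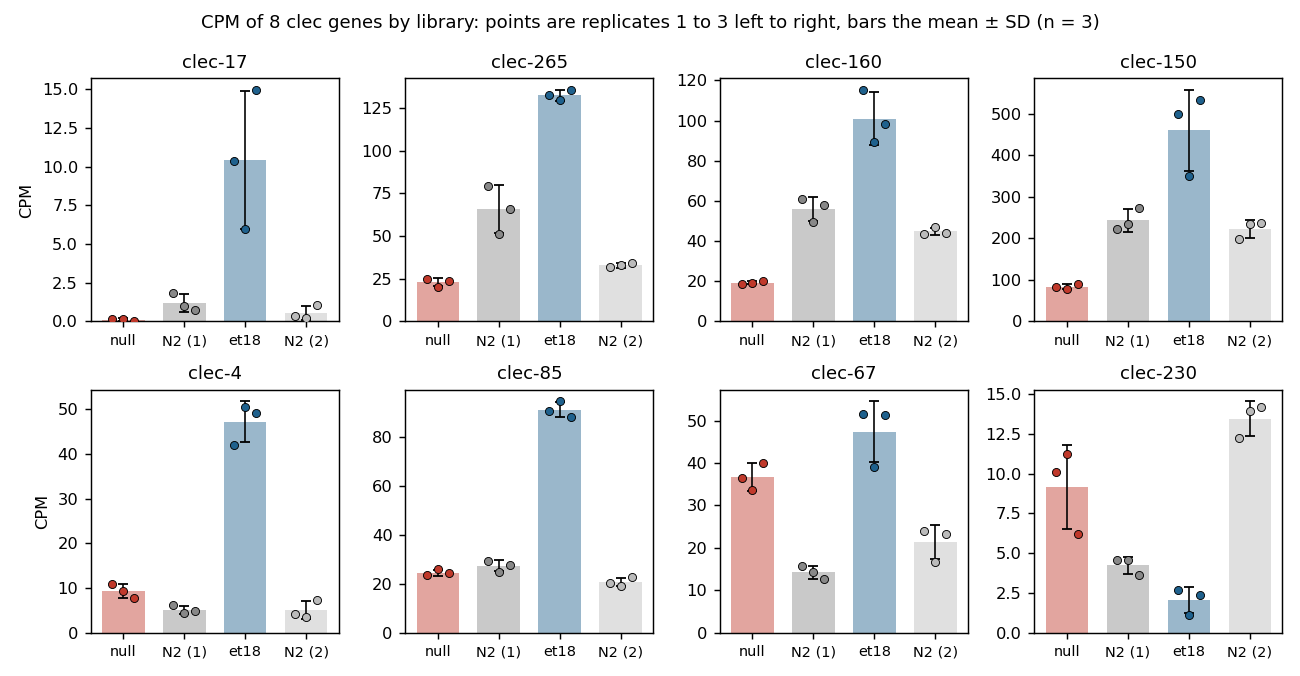
CPM of 8 clec genes in atfs-1(null), N2 of experiment 1, atfs-1(et18) and N2 of experiment 2, with 1 point per library, bars for the mean and error bars for the SD (n = 3). clec-17, clec-265, clec-160 and clec-150 are lower in atfs-1(null) and higher in atfs-1(et18) than in their N2, clec-230 is the reverse, and clec-4 and clec-67 are higher in both mutants.

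A list of 15 clec genes known from studies of worm immunity was examined gene by gene. The list was chosen with earlier results of these data known. Its shares therefore cannot show how common changes are among immunity genes. In atfs-1(null) 13 of them were tested, and 4 rose and 4 fell (30.8% each, background 32.9% and 35.4%) and 5 did not pass. In atfs-1(et18) 14 were tested, and 6 rose (42.9%, background 9.42%), 4 fell (28.6%, background 7.51%) and 4 did not pass. clec-67, another gene regulated by PMK-1, had 36.4, 33.6 and 40.1 CPM in atfs-1(null) and 15.8, 14.3 and 12.6 CPM in its N2, and 51.6, 39.1 and 51.4 CPM in atfs-1(et18) and 24, 16.7 and 23.4 CPM in its N2. It rose by 1.37 ± 0.14 on the log2 scale in atfs-1(null) and by 1.15 ± 0.18 in atfs-1(et18), and the difference between the strains was -0.27 (adjusted p = 0.377). clec-4 was raised in atfs-1(null) as well, to 10.9, 9.25 and 7.80 CPM against 6.19, 4.45 and 4.89 CPM in its N2 (0.85 ± 0.22, adjusted p = 0.0108), but by 2.34 less on the log2 scale than in atfs-1(et18) (adjusted p = 0.000501). clec-85 had 23.5, 25.9 and 24.3 CPM in atfs-1(null) and 29.5, 25.0 and 27.7 CPM in its N2, with overlapping groups (-0.16 ± 0.12, adjusted p = 0.291). clec-65, like clec-4 an ATFS-1-dependent gene of the response to P. aeruginosa, and clec-66 did not pass in atfs-1(null) either (0.23 ± 0.10 and -0.29 ± 0.13, adjusted p = 0.0674 and 0.0795).

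Other members of the immunity list passed in atfs-1(null) alone, in atfs-1(et18) alone, in both strains or in neither. clec-41, which is known to protect against Bacillus thuringiensis, had 109, 103 and 88.8 CPM in atfs-1(null) and 61.6, 57.6 and 46.0 CPM in its N2 (log2 fold change 0.86 ± 0.14, adjusted p = 0.00176), and its change in atfs-1(et18) was 0.03 ± 0.18 (adjusted p = 0.934). clec-49, known from the defence against Serratia marcescens, had 22, 17.5 and 27.3 CPM in atfs-1(null) and 38.3, 48.7 and 54.1 CPM in its N2 (-1.08 ± 0.20, adjusted p = 0.00301), and 0.09 ± 0.18 in atfs-1(et18) (adjusted p = 0.741). clec-60, a gene induced by S. aureus, had 4.87, 1.87 and 5.70 CPM in atfs-1(null) and 10.02, 9.38 and 11.2 CPM in its N2 (-1.30 ± 0.39, adjusted p = 0.0201, and 0.0554 without N2 replicate 3). clec-71 was uneven in both groups of experiment 1, with 11.5, 2.59 and 1.57 CPM in atfs-1(null) and 11.7, 3.33 and 2.89 CPM in N2, replicate 1 being high in both. clec-86 fell in atfs-1(et18) (-1.12 ± 0.23, adjusted p = 0.0233), a call lost without N2 replicate 1 or 3 or atfs-1(et18) replicate 1 or 3 (adjusted p 0.061 to 0.0959), and 11% of its exon bases overlap alh-10. clec-42 had 0.936, 0.408 and 1.63 CPM in atfs-1(et18) and 2.19, 0.255 and 2.99 CPM in its N2 (-0.86 ± 0.83, adjusted p = 0.5), and clec-39 had at most 0.146 CPM in any library and was not tested.

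Genes of immune signalling and regulation, a list of 16, fell in part in atfs-1(null) and rose in part in atfs-1(et18). This list was also chosen with earlier results of these data known. In atfs-1(null) 10 of the 16 fell (62.5%, background 35.4%) and 2 rose (12.5%, background 32.9%), and in atfs-1(et18) 6 rose (37.5%, background 9.42%) and 10 did not pass. The 2 that rose in atfs-1(null) were atf-7 (0.43, adjusted p = 0.00804) and skn-1 (0.36, adjusted p = 0.0416). Both also rose in atfs-1(et18), by 0.25 and 0.40 (adjusted p = 0.0465 and 0.024). When the difference between the strains was tested, the change in atfs-1(et18) was the higher for 10 of 16 (62.5%, background 26.1%) and the lower for none at an adjusted p under 0.05, and 11 had an unadjusted p under 0.05 in the edgeR test. Their median log2 fold change was -0.68 in atfs-1(null), against 0.27 in atfs-1(et18). pmk-1, the p38 kinase, fell by 1.03 in atfs-1(null) (adjusted p = 0.000322), and its log2 fold change in atfs-1(et18) was -0.09 (adjusted p = 0.739), a difference between the strains of 0.91 (adjusted p = 0.00488). tir-1, the adaptor upstream of it, fell by 1.01 in atfs-1(null) and rose by 0.62 in atfs-1(et18) (adjusted p = 0.000476 and 0.0349, difference 1.59, adjusted p = 0.000162). elt-2, the GATA factor of the intestine and also 1 of the 6 intestine markers, fell by 1.60 in atfs-1(null) and rose by 0.72 in atfs-1(et18) (adjusted p = 0.000254 and 0.0308, difference 2.28, adjusted p = 5.66e-05). The galectins (lec genes), a separate family of sugar-binding proteins, fell in atfs-1(null) for 11 of 12 genes (91.7%, background 35.4%) with a median of -1.07. In atfs-1(et18) 1 of 12 rose, 1 fell (8.33% each, background 9.42% and 7.51%) and 10 did not pass.

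Clec genes lie in runs along the chromosomes. When genes whose starts follow each other within 20 kb were joined, 186 of the 265 genes fell into 53 runs. The longest run, with 15 genes on chromosome V (positions 16839145 to 16869845, WBcel235), was little transcribed. In atfs-1(null) 7 of its genes were tested, of which clec-22 and clec-28 rose (1.46 ± 0.33 and 1.11 ± 0.31, adjusted p = 0.00656 and 0.015), both below 1 CPM in all 6 libraries of experiment 1, and the rise of clec-28 was lost without N2 replicate 3 or atfs-1(null) replicate 2 (adjusted p = 0.0581 each). In atfs-1(et18) 4 were tested and clec-26 fell. The next runs by size after the one described below, with 8 genes each on chromosomes II and V, held no tested gene.

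The run of 14 genes on chromosome IV (positions 3922165 to 4014221, WBcel235) had more tested genes than any other run, and its genes moved in both directions. In atfs-1(null) 11 of its genes were tested, of which clec-67, clec-73 and clec-79 rose and clec-69, clec-70, clec-72, clec-74, clec-75 and clec-76 fell. In atfs-1(et18) 10 were tested, of which clec-67 rose and clec-71, clec-72 and clec-78 fell. With the replicate block clec-76 also fell there (-1.64, adjusted p = 0.0407). clec-73 and clec-79 had 69.3, 71 and 28.0 CPM and 51.9, 55.7 and 21.2 CPM in atfs-1(null), the library order of the msp genes, with log2 fold changes of 1.77 ± 0.41 and 1.72 ± 0.43 (adjusted p = 0.00748 and 0.01). clec-78, the gene with the longest exons of the family at 10836 bases, did not pass in atfs-1(null) (-0.23 ± 0.44, adjusted p = 0.65).

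A pair of shorter runs, chosen after their values were seen, held 5 of the 15 genes that rose in atfs-1(et18). Of the 5 genes clec-62 to clec-66 on chromosome II (positions 12893064 to 12906607), clec-63, clec-65 and clec-66 rose in atfs-1(et18), and clec-62 had a log2 fold change of 0.65 ± 0.23 (adjusted p = 0.106) and clec-64 one of -0.49 ± 0.51 (adjusted p = 0.532). With the replicate block clec-62 passed (0.63, adjusted p = 0.0278). In atfs-1(null) only clec-63 of these passed, with a fall. Of the 5 genes clec-80 to clec-85 on chromosome IV (positions 2823746 to 2855456), clec-83 and clec-85 rose in atfs-1(et18), while clec-80, clec-82, clec-83 and clec-84 fell in atfs-1(null) by 1.08 to 1.44 on the log2 scale. By chromosome, IV held the most falls in atfs-1(null), 23 of 34 tested genes, against 17 of 39 on V, 6 of 24 on II, 4 of 10 on III, 3 of 8 on I and 1 of 2 on X. Over all tested genes the share that fell was 30.5% on IV, 39% on V, 31% on II, 29.4% on III, 26.6% on I and 57.9% on X.

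**Figure D5:**
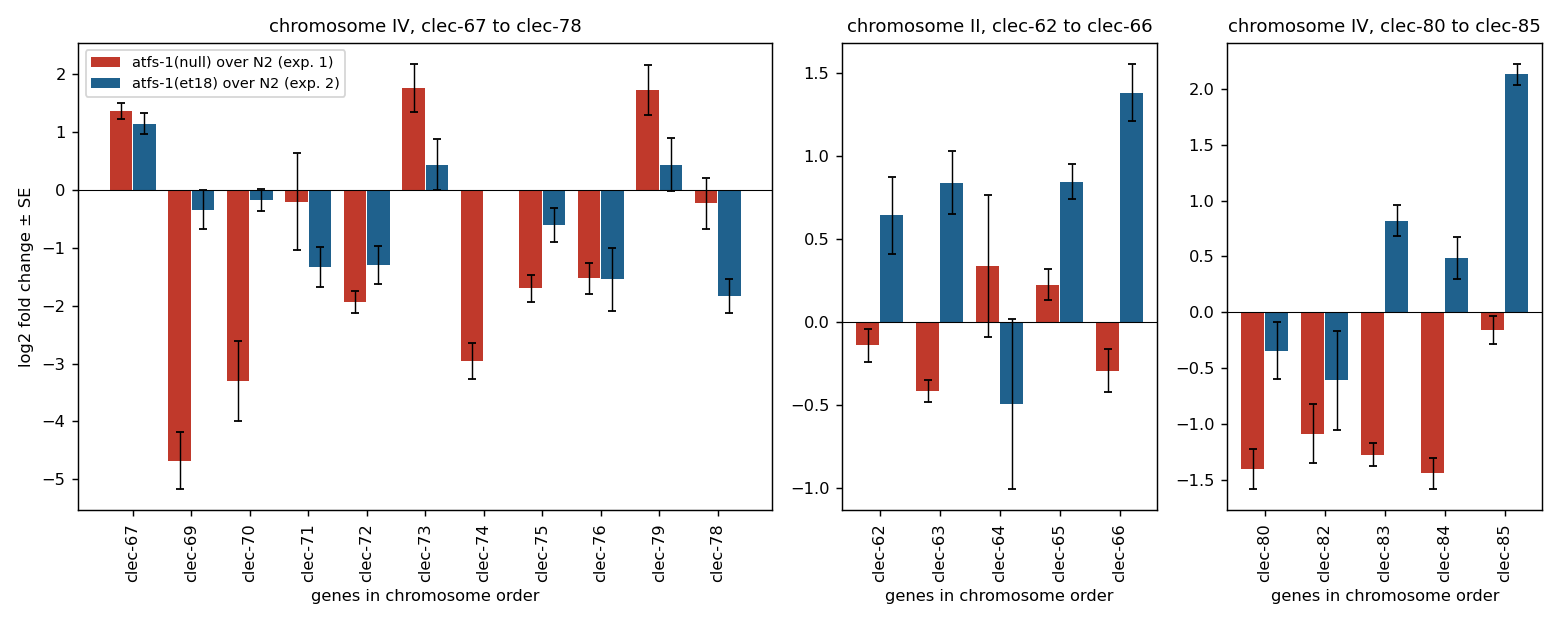
Log2 fold change of tested genes in 3 runs of neighbouring clec genes, in chromosome order, for atfs-1(null) over its N2 (red) and atfs-1(et18) over its N2 (blue), with bars of 1 SE. clec-74 was not tested in atfs-1(et18), and in the run from clec-67 to clec-78 the rises of clec-67, clec-73 and clec-79 in atfs-1(null) stand among falls.

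Pseudogenes gave few reads. In each comparison 5 of the 25 were tested, and in atfs-1(null) clec-69 fell and clec-152 rose (1.24 ± 0.39, adjusted p = 0.0252). The call of clec-152 was lost without N2 replicate 1 or 3 or atfs-1(null) replicate 1 or 2 (adjusted p 0.0604 to 0.0828). In the other strain clec-69 had 1.28, 1.47 and 0.779 CPM in atfs-1(et18) and 1.11, 1.93 and 1.43 CPM in its N2 (-0.34 ± 0.33, adjusted p = 0.506). Tested and untested members differed in length, with a median of 1234 exon bases for the 123 genes tested in either comparison and 860 for the 142 tested in neither.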

How the data were processed

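RNA from whole L4 worms was sequenced in 12 libraries, 3 each of atfs-1(null), atfs-1(et18) and the N2 worms of each experiment. Single-end reads were aligned to WBcel235 by the authors, who deposited unnormalized read counts together with the exon length of each gene. The submitters' processing notes name STAR 2.5.3a, featureCounts of Subread 1.5.2 and edgeR 3.10.0. Whether counting used strand, and how reads matching several places were treated, is not given in the sources used here, so values of overlapping genes and near-identical neighbours are uncertain.

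Names came from a names table, which held 240 clec genes, and from RefSeq locus tags for the 25 pseudogenes. Counts were tested in edgeR 4.0.16 (R 4.3.3) with TMM scaling, the default filter on low counts (minimum count of 10 and total of 15) and quasi-likelihood tests, with p-values adjusted by Benjamini-Hochberg across all tested genes and a threshold of 0.05. The contrast between strains used 1 fit of all libraries. Alternatives were scaling by library size, DESeq2 1.42.0, no filter, a filter at 1 CPM in 3 libraries, a 2-fold minimum, robust estimation, the replicate number as a block, a fit of all 12 libraries and leaving out each library. The tests were checked on simulated data. RPKM was computed from CPM and exon length. Figures were drawn in matplotlib 3.10.9.

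The main fits did not pair libraries by replicate number. Deviations of same-numbered libraries correlated at 0.64, 0.52 and 0.10 in experiment 2 and at -0.02, 0.52 and 0.32 in experiment 1. Libraries of unlike number correlated at up to 0.45 in experiment 2 and 0.23 in experiment 1, so these values do not settle whether the libraries were paired. The block was an alternative in both, because the study's methods name none, and its values stand beside results whose call it changed in experiment 2. The genes named were, in each mutant, the 10 largest rises and falls among called genes whose average log2 CPM was 0 or more and whose groups did not overlap, the 10 genes highest in N2 by RPKM, the immunity list and the 6 smallest p-values for the difference between strains. The members, lists and rules were chosen with earlier results of these data known. edgeR's common biological coefficient of variation came to 0.234 (experiment 1) and 0.242 (experiment 2). Total counts limit only the rarest genes, and no sequence was read because no genome was used here.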

Additional observations from a re-analysis of the deposited data

Results flagged for a closer look

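Of the 52 clec genes named, 39 that were tested in both strains changed differently in the strains at an adjusted p under 0.05. Many were named for a large change in a strain, and some for a small p-value in this same test. A high count was thus built in, and it cannot show how common such differences are in the family. Among all 127 tested clec genes, the change in atfs-1(et18) was the higher for 32.3% and the lower for 19.7%. Over all genes these shares were 26.1% and 22.9%. The values in brackets below are the log2 change in atfs-1(et18) minus that in atfs-1(null), and strain and experiment cannot be told apart in them. The genes lower in atfs-1(null) and higher in atfs-1(et18) were clec-17 (7.48), clec-265 (3.48), clec-160 (2.66), clec-150 (2.54), clec-83 (2.05), clec-186 (1.39) and clec-63 (1.21). The reverse was found in clec-230 (-3.85) and clec-61 (-3.53), and clec-4, higher in both strains, rose more in atfs-1(et18) (2.34).

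The genes that passed in atfs-1(et18) but not in atfs-1(null) were clec-85 (2.24), clec-66 (1.64) and clec-65 (0.58), which rose, and clec-229 (-3.98), clec-26 (-3.18), clec-78 (-1.63), clec-86 (-1.56) and clec-2 (-1.53), which fell. Adjusted p for these lay between 4.7e-06 and 0.0469.

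The genes that rose in atfs-1(null) and did not pass in atfs-1(et18) were clec-88 (-3.10), clec-91 (-3.09), clec-87 (-2.69), clec-260 (-2.52), clec-153 (-2.15), clec-117 (-2.08) and clec-41 (-0.88). Those that fell in atfs-1(null) and did not pass in atfs-1(et18) were clec-69 (4.29), clec-70 (3.10), clec-233 (2.43), clec-204 (2.26), clec-210 (2.13), clec-48 (1.98), clec-146 (1.88), clec-84 (1.88), clec-180 (1.63), clec-205 (1.44), clec-50 (1.37), clec-5 (1.27), clec-49 (1.12) and clec-1 (0.58).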

How the results depend on the processing

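The counts of clec genes that changed in atfs-1(null) stayed within 1.5 times under every alternative, at 23 to 40 higher and 42 to 55 lower. The excess of falls over the background was less stable. In the main fit 46.2% of tested clec genes fell (background 35.4%). With DESeq2 26.8% fell (background 25.9%), and without the filter on low counts 22.5% fell (background 20.1%). In atfs-1(et18) the at least 2-fold rule left 9 rises, and leaving out 1 library gave 10 to 23 rises and 3 to 23 falls. Without atfs-1(et18) replicate 2, the 23 rises were 18.3% (background 17.2%) and the 23 falls 18.3% (background 11.3%). Without N2 replicate 3, the 10 rises were 8.06% (background 3.33%) and the 3 falls 2.42% (background 1.95%). For the difference between strains, the clec genes lower in atfs-1(et18) were 38 of 167 with DESeq2 (22.8%, background 24.9%). They were 40 of 243 without the filter on low counts (16.5%, background 17%). Without both atfs-1(null) replicate 3 and atfs-1(et18) replicate 2 they were 42 of 136 (30.9%, background 34.3%). Without 1 library they ran from 18 (13.3%, background 20.8%, without atfs-1(null) replicate 1) to 43 (30.7%, background 30.3%, without atfs-1(et18) replicate 2). The shares over all genes thus shifted too. The cause of these shifts was not tested.

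With the replicate block, 33 clec genes rose (28.2%, background 34.5%) and 55 fell (47%, background 36%) in atfs-1(null). In atfs-1(et18) 19 rose (16.2%, background 10.7%) and 20 fell (17.1%, background 9.77%). The difference was higher for 41 (32.3%, background 27.2%) and lower for 36 (28.3%, background 28.3%). Of the genes named by rule the block added only clec-229 in atfs-1(null), beside the changes given for atfs-1(et18). Changes that did not pass and lay near 0 turned sign. In atfs-1(et18) these were clec-153 (-0.0053) and clec-175 (-0.17) with the block. In atfs-1(null) they were clec-85 (0.093), clec-78 (0.024), clec-2 (0.24) and clec-71 (0.061) with scaling by library size alone, and clec-2 with the block (0.026), DESeq2 (0.12), no filter (0.10) and all 12 libraries in 1 fit (0.046). Without 1 library, log2 fold changes in atfs-1(et18) ran from -0.20 to 0.92 for clec-117, -0.66 to 0.52 for clec-153, -0.99 to 0.44 for clec-175, -0.91 to 0.0059 for clec-260, -0.23 to 0.81 for clec-151, -0.39 to 0.0074 for clec-146, -0.12 to 0.20 for clec-41 and -0.092 to 0.25 for clec-49. In atfs-1(null) they ran from -0.49 to 0.10 for clec-78, -0.29 to 0.33 for clec-2 and -1.50 to 0.74 for clec-71. Of the 41 named calls in atfs-1(null), 38 held without any single library, as did 11 of 24 in atfs-1(et18) and all 6 differences between strains that were named for the smallest p-values. Of the other calls, 25 of 40 in atfs-1(null) and none of 8 in atfs-1(et18) held without any single library.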
